A study of Mus musculus with 39 samples.

Results

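The 41 genes described here encode proteins of the presynaptic terminal, the side of a synapse that releases transmitter. By role they comprise 18 genes of the synaptic vesicle, 11 of the active zone, 7 of the fusion and release machinery and 5 other presynaptic genes. They were listed by symbol, with earlier results of these data known, and all 41 were found among the 50559 genes of each count table. All 41 also passed the filter on low counts in every fit.

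Poly(A) RNA of bulk tissue was sequenced to see how amyloid and tau pathology, when both are present, act on the amygdala and the hippocampus, which process emotion and memory. The basolateral amygdala (BLA) was taken with 4 punches of 1 mm per mouse, and the hippocampus was dissected with a scalpel. All mice were females of 9 months. The APP/Tau genotype combines the J9 line, whose human APP transgene bears the Swedish and Indiana changes, and the PS19 line, whose human tau transgene bears P301S. Both lines were on C57BL/6, and controls had neither transgene. The sources used here do not say which promoters drive APP and tau. All groups, the controls among them, also had CaMKIIα-Cre, a recombinase active in glutamatergic neurons of the postnatal forebrain, and a heterozygous RiboTag allele, which lets ribosomes of those neurons be tagged. The libraries come from the lysate before any pull-down of tagged ribosomes, so every cell type in the dissected piece contributes RNA. Trained mice received a tone that ended in a foot shock and were killed 1 hour afterwards, whereas naive mice had no training. In the BLA, APP/Tau libraries numbered 5 (naive) and 4 (trained) and control libraries 5 and 5. In the hippocampus, APP/Tau libraries numbered 5 and 4 and control libraries 5 and 6.

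Synaptic vesicles are filled with transmitter, tethered, docked at a protein dense patch of membrane called the active zone, primed and fused when calcium enters. Synapsins tether vesicles, SV2 proteins and synaptophysin span the vesicle membrane, VGLUT transporters load glutamate, and synaptotagmins sense calcium. Scaffolds such as Bassoon, Piccolo, RIM, ELKS and liprin-α organise the active zone, and Munc13 proteins prime vesicles there. VAMP, SNAP-25 and syntaxin form the SNARE complex that drives fusion, complexins clamp and promote it, and NSF takes the spent complex apart. The messenger RNA of these proteins lies largely in neuronal cell bodies, so a tissue sample reports on the neurons whose bodies it holds rather than on terminals that project into it. Loss of presynaptic proteins is a known feature of Alzheimer's disease.

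Total counts ran from 50.3 to 74.3 M (mega-counts) in the 19 BLA libraries and from 92.1 to 128 M in the 20 hippocampal libraries. The 41 genes held 1.54 to 2.2% of BLA counts and 1.48 to 1.98% of hippocampal counts. The ribosomal RNA entry Rn18s-rs5 exceeded 3 times the tissue median in 1 BLA and 3 hippocampal libraries, all of them controls, and reached 5.18% of the counts in a naive control. No gene of a list of 15 general neuronal markers was at 0 in all libraries of a group. Markers of BLA projection neurons summed to 573 to 1497 CPM (counts scaled to library size) in BLA libraries and 566 to 850.4 CPM in hippocampal ones, so the ranges of the sum overlapped. Taken singly in the edgeR comparison of tissues below, 7 of these 8 markers differed, 4 higher and 3 lower in the BLA. Markers of hippocampal neurons summed to 384 to 611 CPM in BLA libraries and 365 to 841 CPM in hippocampal ones. Taken singly, all 10 of them differed, 1 higher and 9 lower in the BLA. Markers of striatal neurons, which lie beside the BLA, summed to 552 to 5049 CPM in the BLA but 213 to 314 CPM in the hippocampus. The labels give punches per mouse but do not tie libraries to named mice, so the p-values measure the spread between libraries, here spoken of as mice.

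Promoter sequences were available for 34 of the 41 genes in a RefSeq table of build GRCm38.p6. No entry was present for Syn3, Syt4, Syt7, Vamp2, Snap25, Rims2 and Nrxn2. The 250 bases before the transcription start are shown for 5 genes on which the results below turn. Pclo and Sypl are the genes that differed between genotypes in the hippocampus. Unc13b and Unc13c are paralogs with opposite regional differences, though the call of Unc13b was lost in 1 of 8 alternative fits. Syn1 carries the match with fewest mismatches to RE1, the element bound by the repressor REST, which silences neuronal genes outside neurons. Each sequence runs 5′ to 3′ on the strand of the gene. Capitals mark GC boxes (GGGCGG on either strand) in the first 4 and the RE1 match in Syn1. The windows are chr5:14514668-14514917 (+ strand) for Pclo, chr12:32953695-32953944 (+ strand) for the first listed start of Sypl, chr4:43058703-43058952 (+ strand) for Unc13b, chr9:73969038-73969287 (- strand) for Unc13c and chrX:20920919-20921168 (- strand) for Syn1.
Pclo: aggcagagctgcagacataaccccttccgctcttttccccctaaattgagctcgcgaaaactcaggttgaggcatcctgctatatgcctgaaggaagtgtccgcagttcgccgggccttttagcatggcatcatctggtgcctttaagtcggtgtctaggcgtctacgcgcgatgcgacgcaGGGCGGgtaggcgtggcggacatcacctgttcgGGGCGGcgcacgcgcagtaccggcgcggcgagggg
Sypl: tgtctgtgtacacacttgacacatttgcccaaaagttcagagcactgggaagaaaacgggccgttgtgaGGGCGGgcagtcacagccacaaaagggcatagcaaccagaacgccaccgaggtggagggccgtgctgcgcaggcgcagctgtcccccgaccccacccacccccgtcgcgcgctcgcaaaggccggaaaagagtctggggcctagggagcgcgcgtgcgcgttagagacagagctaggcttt
Unc13b: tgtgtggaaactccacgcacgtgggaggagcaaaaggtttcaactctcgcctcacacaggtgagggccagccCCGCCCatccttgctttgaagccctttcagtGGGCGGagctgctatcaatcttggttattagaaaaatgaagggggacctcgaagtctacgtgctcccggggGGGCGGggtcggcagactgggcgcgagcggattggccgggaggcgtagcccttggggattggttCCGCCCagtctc
Unc13c: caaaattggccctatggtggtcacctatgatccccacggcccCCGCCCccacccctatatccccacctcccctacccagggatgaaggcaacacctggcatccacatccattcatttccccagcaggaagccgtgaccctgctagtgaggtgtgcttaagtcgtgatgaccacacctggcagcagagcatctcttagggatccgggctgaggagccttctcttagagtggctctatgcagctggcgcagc
Syn1: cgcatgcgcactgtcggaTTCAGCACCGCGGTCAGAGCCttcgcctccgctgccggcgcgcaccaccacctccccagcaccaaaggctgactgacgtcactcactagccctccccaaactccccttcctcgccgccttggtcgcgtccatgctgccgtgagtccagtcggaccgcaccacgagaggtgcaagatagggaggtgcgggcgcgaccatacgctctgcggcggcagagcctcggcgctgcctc
A GC box lay in this window, for at least 1 listed start, in 24 of the 34 genes (70.6%), against 35.4% of the 27025 genes of the table. Pclo held 2, Sypl and Unc13c held 1 each and Unc13b held 4. The consensus of RE1 (searched on both strands with at most 3 mismatches) was matched in 2 of the 34 genes (5.88%), against 0.0925% of all genes in the table. The matches were in Syn1, with 1 mismatch, and in Rph3a, with 3. These are matches of letters, not binding measured in these mice. For both motifs a gene with several listed starts had several windows, 47 for the 34 genes and 32851 for all genes of the table. All genes of the table were counted, whether or not they were expressed in these tissues.

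In control mice Syp, Vamp2, Snap25 and Slc17a7 were the most abundant of the 41 genes per kilobase of exon in the BLA. In the hippocampus these were Cplx2, Snap25, Syp and Vamp2. Members of the same roles also lay at the low end, such as the complexin Cplx3 at 1.83 ± 0.407 in the BLA. Levels here are CPM per kilobase of exon, with lengths from GENCODE vM21, an annotation of an older genome build than the one the counts were made with. Syp, the gene of synaptophysin, stood at 347 ± 54.1 CPM per kilobase in the BLA (SD, n = 10), and Vamp2, the main vesicle SNARE of forebrain synapses, at 333 ± 28.9. These neighbours differed by less than their spread. In the hippocampus Cplx2, a complexin, stood at 363 ± 16.1 and Snap25 at 345 ± 23.2 CPM per kilobase (SD, n = 11), again within their spread of each other. Slc17a7, which encodes the cortical and hippocampal glutamate transporter VGLUT1, stood at 276 ± 84.7 in the BLA and 237 ± 10.6 in the hippocampus. Its relative Slc17a6 (VGLUT2), typical of thalamic and other subcortical neurons, stood at 4.73 ± 1.86 and 6.89 ± 1.93 CPM per kilobase. Active zone genes lay far lower than the abundant vesicle genes. Rims1 stood at 33.9 ± 5.53 in the BLA, within the spread of Ppfia3 (31.2 ± 3.59), and at 28.2 ± 1.37 in the hippocampus, and the giant scaffold gene Pclo stood at 10.6 ± 1.55 and 14.2 ± 0.977. Per kilobase, Unc13b had the lowest mean of the active zone genes in both tissues, at 1.85 ± 0.348 and 2.14 ± 0.116. In the hippocampus Unc13c, at 2.61 ± 0.616, lay within its spread of Unc13b. The exon lengths used were 22746 bases for Unc13b and 8796 for Unc13c. Without division by length, their control medians there were 47.9 and 24.5 CPM.

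Averaged over the 4 genotype and training groups, 31 of the 41 genes differed between the tissues, 19 higher and 12 lower in the BLA. A gene was called where its edgeR p, adjusted over all genes tested, was below 0.05. Of all 26725 genes tested, 64.5% passed the same threshold (30% higher and 34.5% lower in the BLA), so most genes of any kind differed. The median log2 fold change, BLA over hippocampus, was 0.14 for the 41 genes and -0.05 for all genes. Among vesicle genes 10 were higher and 4 lower in the BLA, among active zone genes 5 and 4, in the release machinery 1 and 4, and among the other presynaptic genes 3 and 0. The fit treated all libraries as independent. The tissues share library numbers, and 17 of 19 BLA libraries correlated best with the hippocampal library of their own number. Region cannot be told apart here from the dissection, from the RNA input (10 ng for BLA and 50 ng for hippocampal libraries) or from depth. In bulk tissue a difference in the number of cells of a type and a difference in the RNA per cell cannot be told apart either.

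**Figure D1:**
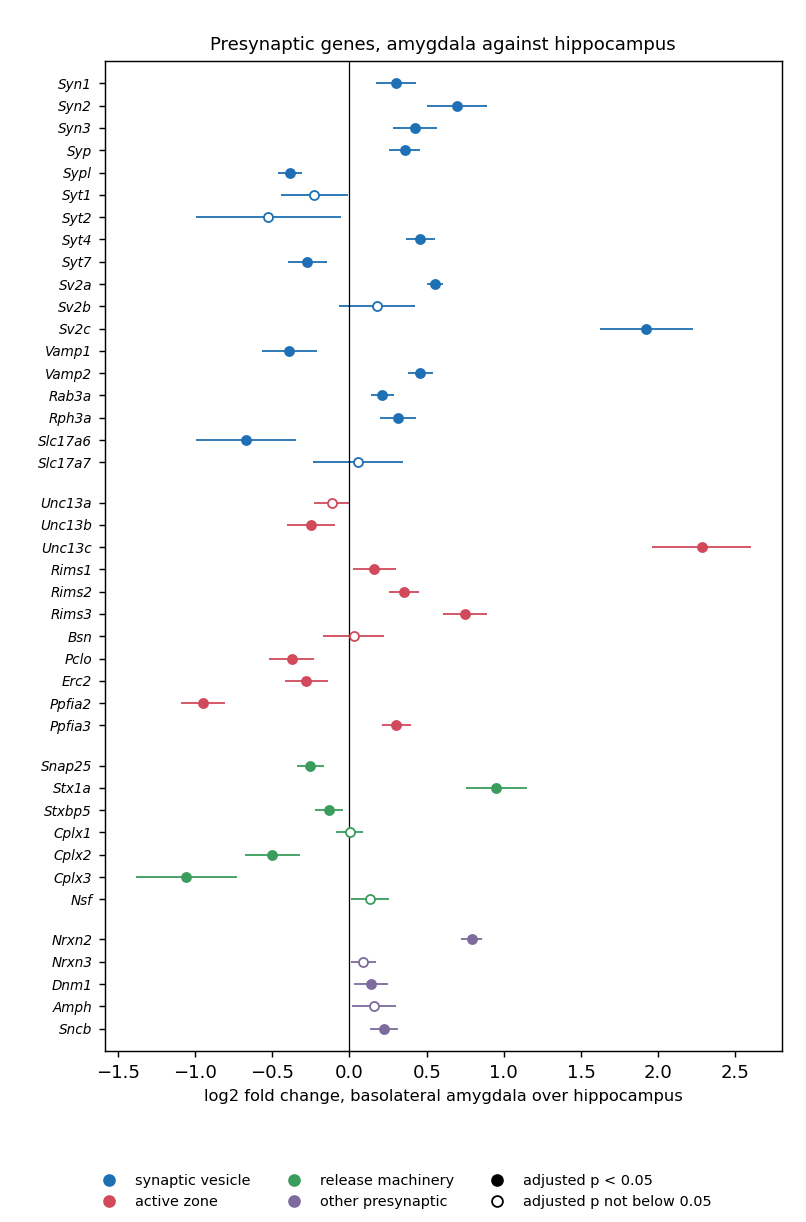
Log2 fold change of each of the 41 genes, BLA over hippocampus, averaged over the 4 genotype and training groups, with 95% intervals, coloured by role. Filled points passed the threshold. Unc13c (2.28) and Sv2c (1.92) lie farthest to the right and Cplx3 (-1.06) and Ppfia2 (-0.95) farthest to the left.

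For 3 genes the libraries of the BLA and the hippocampus did not overlap. Levels in this paragraph are CPM after normalising both tissues together. Nrxn2, a neurexin that links the terminal to its partner cell, ran from 411 to 614 CPM in the BLA (median 528) and from 271 to 322 in the hippocampus (median 295). Every BLA library lay above every hippocampal one, and the log2 fold change was 0.79 ± 0.03 (SE; edgeR adjusted p = 6.09e-21). Sv2a, the SV2 protein of most synapses and the target of the drug levetiracetam, ran from 541 to 649 CPM in the BLA (median 593) and from 378 to 448 in the hippocampus (median 397). Its ranges did not overlap either, with a log2 fold change of 0.55 ± 0.03 (edgeR adjusted p = 2.25e-19). Unc13c (Munc13-3) ran from 38.9 to 198 CPM in the BLA (median 93.0) and from 10.3 to 33.0 in the hippocampus (median 20.8). The log2 fold change was 2.28 ± 0.16 (edgeR adjusted p = 9.9e-15). All 3 were higher in the BLA, and 5.02% of all genes lay wholly above and 3.45% wholly below the hippocampal range.

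The other genes with the smallest p in this comparison overlapped between tissues. Sv2c, the SV2 form typical of basal ganglia, ran from 63.4 to 277 CPM in the BLA (median 164) and from 16.01 to 70.6 in the hippocampus (median 39.5). Only the lowest BLA libraries reached the hippocampal range, and the log2 fold change was 1.92 ± 0.15 (edgeR adjusted p = 1.92e-13). Ppfia2 (liprin-α2) ran from 74.2 to 133 CPM in the BLA (median 98.8) and from 110.4 to 248 in the hippocampus (median 200.0), a log2 fold change of -0.95 ± 0.07 (edgeR adjusted p = 6.4e-14). The hippocampal libraries within the BLA range were those of 2 APP/Tau mice described below. Rims3, a short RIM form, was higher in the BLA by 0.75 ± 0.07 on the log2 scale (edgeR adjusted p = 2.71e-11), with medians of 138 and 83.3 CPM. Sypl, a relative of synaptophysin found in many cell types, had a log2 fold change of -0.39 ± 0.04 (edgeR adjusted p = 7.64e-11), with medians of 42.9 and 53.1 CPM.

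Within several gene families one paralog was higher in the BLA and another in the hippocampus. Among vesicle SNAREs, Vamp2 had a log2 fold change of 0.46 ± 0.04 (edgeR adjusted p = 3.6e-12), with medians of 1212 CPM in the BLA and 888 in the hippocampus. Vamp1, the form typical of brainstem and fast-spiking neurons, had -0.39 ± 0.09 (edgeR adjusted p = 0.000304), with medians of 89.7 and 124 CPM. Among synaptotagmins, Syt4 had 0.46 ± 0.05 and Syt7, a sensor for asynchronous release, -0.27 ± 0.06. Among Munc13 genes, Unc13b had -0.25 ± 0.08 (edgeR adjusted p = 0.00619) against 2.28 for Unc13c, and the main form Unc13a, at -0.12 ± 0.06, did not pass (edgeR adjusted p = 0.0798). Among liprins, Ppfia3 had 0.30 ± 0.05 against -0.95 for Ppfia2. The 3 synapsins and the 3 RIM genes were all higher in the BLA. Of the complexins, Cplx3 (-1.06 ± 0.17) and Cplx2 (-0.50 ± 0.09), were lower in the BLA, while Cplx1 stood at 0.00 ± 0.05. Stx1a was the 1 gene of the release machinery higher in the BLA, at 0.95 ± 0.10. The calls of Rims1 (0.16 ± 0.07, edgeR adjusted p = 0.0481) and Dnm1 were lost when single mice were left out. Those of Unc13b, Syt7, Slc17a6, Erc2 and Stxbp5 were each lost in 1 of 8 alternative fits, with the sign kept.

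Markers of neighbouring cell populations differed in the same comparison. All 11 striatal markers were higher in the BLA (median log2 fold change 2.88), as were 6 of 8 GABAergic markers, with 1 lower. By contrast 5 of 6 glutamatergic, 9 of 10 hippocampal neuron and all 9 oligodendrocyte markers were lower. Of 10 thalamic markers 7 were lower and 0 higher (median -0.61). Of 8 astrocytic markers 4 were lower and 1 higher, and of 12 microglial markers 3 were lower and 0 higher. The part of these populations in the regional differences was not tested.

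Within the BLA, the presynaptic genes moved with the amount of striatal signal in the punch. Striatal marker levels differed 11-fold between BLA libraries, and each gene was fitted against the mean log2 level of 11 striatal markers with the 4 groups held fixed. Slopes are log2 units of the gene per doubling of the marker level. Of the 41 genes, 29 had a slope that passed the threshold, 7 rising and 22 falling with the striatal signal, where 15.2% of all 23168 genes tested did (7.18% rising and 8.02% falling). The median slope was -0.12 for the 41 genes and 0.00 for all genes. By role 12 of 18 vesicle, 8 of 11 active zone, 4 of 7 release machinery and all 5 other genes passed. This fit was chosen after seeing the data, and all points share their library, so that a rise of 1 population lowers the share of others.

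Slc17a7 fell most steeply, by 0.68 ± 0.08 (SE) per doubling (edgeR adjusted p = 9.02e-06). It stood at 377 and 392 CPM in the 2 libraries with the most striatal signal, a trained control (replicate 2) and a naive APP/Tau mouse (replicate 2), and between 604 and 2157 CPM in the other 17. Sv2b, an SV2 form of glutamatergic neurons, fell by 0.56 ± 0.06 (edgeR adjusted p = 1.77e-06), with 204 and 214 CPM in the same 2 libraries and 259 to 849 CPM in the others. Stx1a fell by 0.43 ± 0.05, Syn2 by 0.38 ± 0.05, Unc13b by 0.32 ± 0.05 and Amph, the gene of amphiphysin, by 0.30 ± 0.04. In the other direction Syt2, the fast calcium sensor of many inhibitory neurons, rose by 1.02 ± 0.10 (edgeR adjusted p = 9.87e-07). It reached 73.1 and 90.2 CPM in the 2 libraries above and 8.99 to 48.2 CPM in the rest. Unc13c rose by 0.50 ± 0.09, Sv2c by 0.47 ± 0.08 and Vamp1 by 0.31 ± 0.06. The number of genes that passed was 27 without the 2 libraries farthest from the median (naive APP/Tau replicate 2 and trained control replicate 5) and 21 to 30 when single libraries were left out. The glutamatergic and BLA neuron markers fell in the same fit (5 of 6 and 6 of 8 passed), and 9 of 9 oligodendrocyte markers rose.

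**Figure D2:**
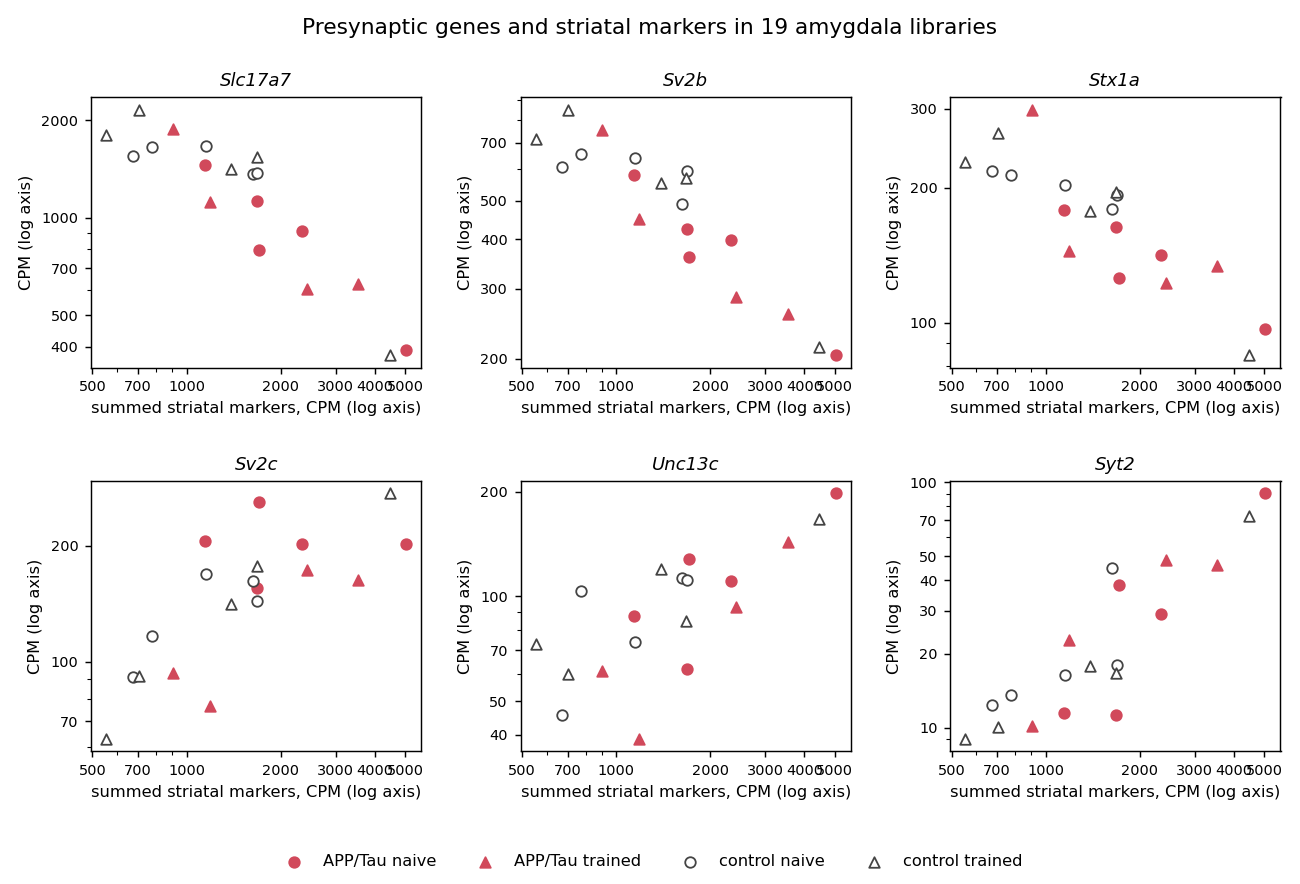
CPM of 6 presynaptic genes against the summed CPM of 11 striatal markers in the 19 BLA libraries, both on log axes. Slc17a7, Sv2b and Stx1a go down and Sv2c, Unc13c and Syt2 go up from left to right. APP/Tau mice are filled and controls open. The slope fitted was common to all groups, and a difference in slope between genotypes was not tested.

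In the hippocampus of APP/Tau mice Piccolo transcripts were lower and synaptophysin-like transcripts higher than in controls. Those 2 were the only called genes of the 41 when the genotype effect was averaged over naive and trained mice, 1 higher and 1 lower, where 7.27% of all 25791 genes were called higher and 3.8% lower, 11.1% in all. In this fit the share among the 41 genes was thus below that of all genes. The number called ran from 0 to 11 in other settings, whose shares of all genes are not given here. Of the 41 log2 fold changes 35 were below 0, with a median of -0.12 against -0.00 for all genes, of which 50.3% were below 0. An unadjusted p below 0.05 was found for 23 of the 41 genes and for 28.5% of all genes. The ranges of APP/Tau and control libraries overlapped for all 41 genes in both tissues (0.473% of all genes did not overlap in the hippocampus and 0.0647% in the BLA).

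Pclo, whose promoter window is printed earlier, encodes Piccolo, a very large scaffold of the active zone. It ran from 181 to 323 CPM in the 9 APP/Tau mice (median 269.8) and from 282 to 347 CPM in the 11 controls (median 321). All but 1 of the APP/Tau mice lay below the control median, and the lowest was a naive mouse (replicate 5). The log2 fold change was -0.28 ± 0.08 (SE; edgeR adjusted p = 0.0301). It was -0.25 ± 0.09 without the 3 control libraries rich in ribosomal RNA, with an edgeR adjusted p of 0.0974, so the call ended without them. Sypl ran from 51.4 to 71.0 CPM in APP/Tau mice (median 59.8) and from 45.0 to 59.5 CPM in controls (median 51.9), with 1 APP/Tau mouse below the control median. The log2 fold change was 0.20 ± 0.06 (edgeR adjusted p = 0.0413). This call was lost in 14 of the 20 fits that left out 1 library. Nsf, which recycles SNARE complexes, came next by p. It ran from 722 to 1114 CPM in APP/Tau mice and 1051 to 1169 CPM in controls, with all 9 APP/Tau mice below the control median of 1131, and its log2 fold change of -0.22 ± 0.07 did not pass (edgeR adjusted p = 0.0567).

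Among genes that did not pass in the hippocampus, the Munc13 genes had log2 fold changes of -0.26 ± 0.09 (Unc13a), -0.13 ± 0.06 (Unc13b) and -0.37 ± 0.16 (Unc13c), and the scaffolds Bsn, Erc2 and Ppfia2 had -0.31 ± 0.10, -0.26 ± 0.11 and -0.31 ± 0.11. Rims3 stood at 0.26 ± 0.10, beside -0.09 ± 0.06 for Rims1 and 0.03 ± 0.07 for Rims2. The median was -0.26 over the 11 active zone genes, -0.11 over the 18 vesicle genes, -0.09 over the 7 release genes and -0.09 over the other 5. Sv2a (-0.02 ± 0.04) and Slc17a6 (0.02 ± 0.18) lay nearest to 0. Glial markers differed in the same comparison: 11 of 12 microglial, 6 of 8 astrocytic and 6 of 9 oligodendrocyte markers were called higher (medians of 1.44, 0.32 and 0.45), and 3 of 10 hippocampal neuron markers and 1 of 15 general neuronal markers lower. The microglial markers summed to 492.8 to 1873 CPM in APP/Tau mice and 390.4 to 469 CPM in controls. Their part in the presynaptic differences was not tested.

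In the BLA of APP/Tau mice Syt4 was lower, and it was the 1 gene of the 41 called, where 0.181% of all 23168 genes were called lower and 0.997% higher, 1.18% in all. Syt4 encodes a synaptotagmin that acts on dense core vesicles as well as synaptic ones. It ran from 185 to 254 CPM in the 9 APP/Tau mice (median 219) and from 233 to 332 CPM in the 10 controls (median 279). All 9 APP/Tau mice lay below the control median, while the ranges overlapped between 233 and 254 CPM. The log2 fold change was -0.35 ± 0.08 (SE; edgeR adjusted p = 0.0327). Stxbp5 (tomosyn), an inhibitor of SNARE assembly, ran from 94.7 to 146 CPM in APP/Tau mice and from 119 to 149.5 in controls. Its log2 fold change of -0.25 ± 0.08 did not pass (edgeR adjusted p = 0.0864). Ppfia3 stood at 169 to 264 CPM in APP/Tau mice and 184 to 283 CPM in controls, with a log2 fold change of -0.25 ± 0.08 (edgeR adjusted p = 0.114), which did not pass either.

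Of the 41 log2 fold changes in the BLA 32 were below 0, with a median of -0.20 against 0.01 for all genes, of which 48.4% were below 0. An unadjusted p below 0.05 was found for 23 of the 41 genes and for 19% of all genes. The median was -0.23 over active zone genes, -0.20 over vesicle genes, -0.13 over release genes and -0.13 over the other 5. Slc17a7 (-0.58 ± 0.28), Sv2b (-0.51 ± 0.23) and Bsn (-0.45 ± 0.17) had the values farthest below 0, none of them past the threshold, and Cplx3 (0.64 ± 0.22) and Syt2 (0.55 ± 0.45) the values farthest above. In this comparison all 11 striatal markers lay above 0, with a median of 0.64 and none called, and 7 of 8 BLA neuron markers below 0, with a median of -0.48 and none called. Striatal markers summed to 904 to 5049 CPM in APP/Tau mice and 552 to 4468 CPM in controls, so the ranges overlapped. With the striatal marker level as a covariate the median over the 41 genes was -0.13, with 37 of 41 below 0, and the value for Syt4 was -0.25 ± 0.05 (edgeR adjusted p = 0.0657). Of the 41 genes 7 changed sign with the covariate, among them Syt2 (-0.12 ± 0.20) and Unc13c (0.07 without and -0.30 ± 0.17 with it), while Cplx3 stood at 0.73 ± 0.23. Among other markers 9 of 12 microglial, 2 of 8 astrocytic and 2 of 9 oligodendrocyte markers were called higher and 2 of 15 general neuronal markers lower, and their part was not tested.

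The number of genes called in the BLA moved in 14 of the 19 fits that left out 1 mouse. Without trained APP/Tau replicate 2, 16 of the 41 genes were called, all lower: Syn1, Syn2, Syn3, Syt4, Sv2b, Rph3a, Unc13a, Rims1, Bsn, Erc2, Ppfia2, Ppfia3, Stxbp5, Nsf, Dnm1 and Amph. In that fit 9.21% of all 23626 genes tested were called, 4.17% of all genes being lower. Bsn then stood at -0.64 ± 0.14 (edgeR adjusted p = 0.00804). The Slc17a7 level of that mouse, 1882 CPM, was the highest of the APP/Tau mice, and its striatal markers, at 904 CPM, were the lowest of that genotype. Without trained control replicate 2, the control with most striatal signal, 7 genes were called, all lower, where 5.47% of all genes were called and 2.07% were lower. In 12 other fits that left out 1 library no gene was called, Syt4 included.

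**Figure D3:**
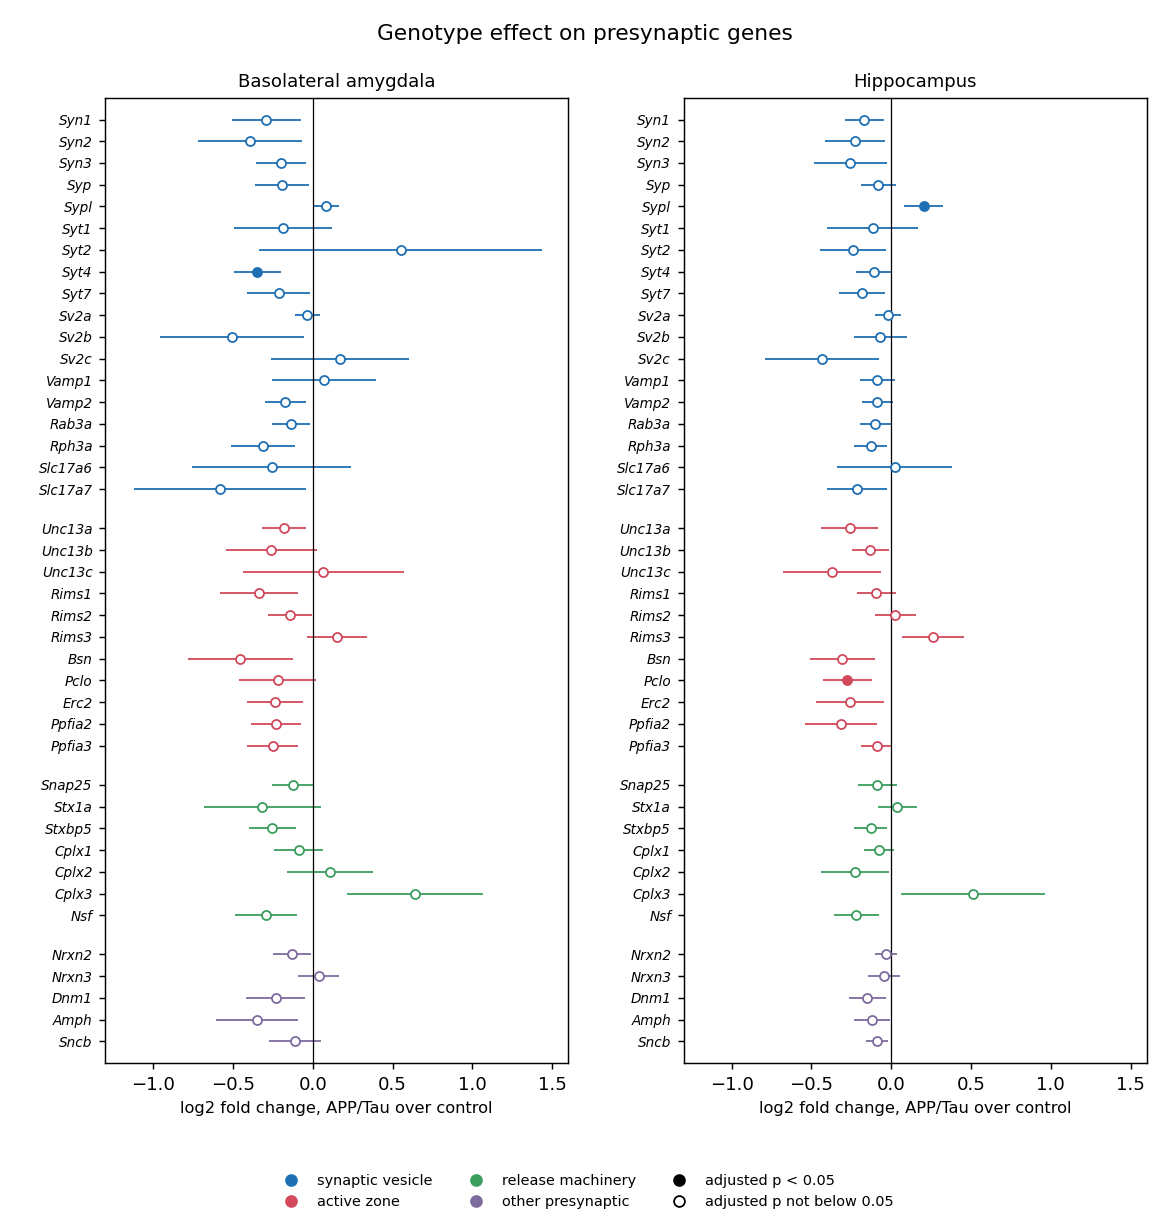
Log2 fold change of each of the 41 genes, APP/Tau over control, averaged over naive and trained mice, in the BLA and the hippocampus, with 95% intervals, coloured by role. Filled points passed the threshold: Syt4 (-0.35) in the BLA and Pclo (-0.28) and Sypl (0.20) in the hippocampus.

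The genotype effects of the 2 tissues were compared directly, and none of the 41 genes differed between them by edgeR. An unadjusted p below 0.05 was found for 1 of the 41 genes and for 8.34% of all genes, and DESeq2 and limma-voom called 0 as well. Of all genes 0.0262% were called (0.00748% higher and 0.0187% lower). Syt4 had the smallest p, with a log2 difference of -0.25 ± 0.10 between its effects (-0.35 in the BLA and -0.11 in the hippocampus, edgeR adjusted p = 0.448). The call in 1 tissue and not in the other therefore does not show that the effects differ.

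The balance of active zone to vesicle transcripts differed less between genotypes than between mice. The mean log2 CPM of the 11 active zone genes minus that of the 18 vesicle genes was -0.89 in APP/Tau and -0.85 in control BLA, a difference of -0.03 beside a within-group SD of 0.09. In the hippocampus it was -0.90 and -0.86, a difference of -0.04 beside an SD of 0.08. Both differences were smaller than the spread between mice. That spread is of single libraries and is wider than the error of a group mean, so it does not test the difference. No test was run on it. Leaving out 1 library moved them between -0.06 and -0.01 in the BLA (without trained APP/Tau replicate 4, -0.012) and between -0.06 and -0.02 in the hippocampus (without naive APP/Tau replicate 5, -0.0199). The lowest hippocampal library was naive APP/Tau replicate 5, at -1.07, and the lowest BLA library a trained control at -1.03.

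**Figure D4:**
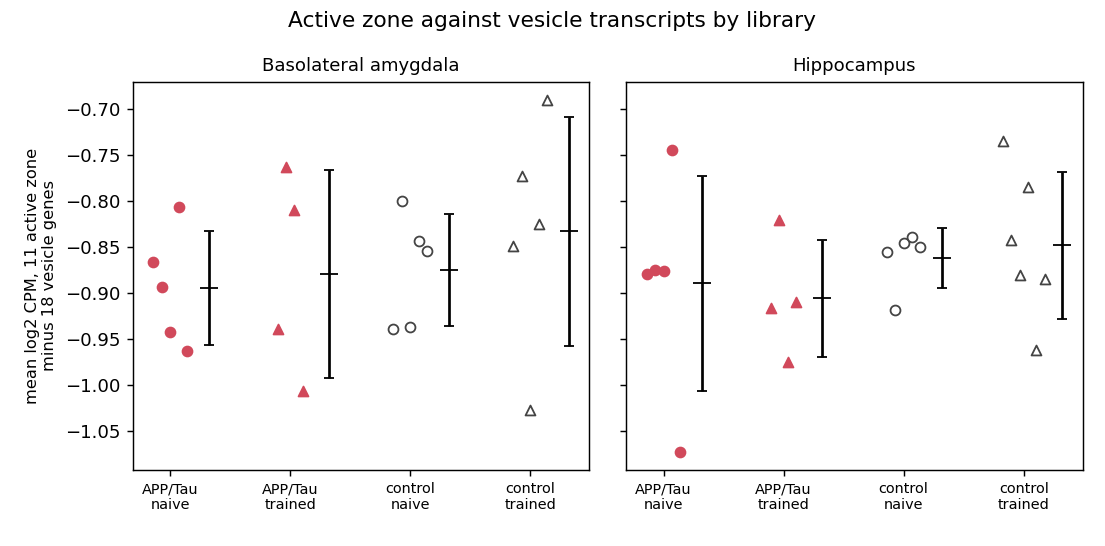
Mean log2 CPM of the 11 active zone genes minus that of the 18 vesicle genes in each library, by group, with the mean and SD of each group beside the points. All groups overlap, between -1.03 and -0.69 in the BLA and between -1.07 and -0.74 in the hippocampus.

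Looked at separately, naive and trained mice gave no genotype call among the 41 genes by edgeR. In naive BLA 0.0388% of all genes were called (0.0129% higher and 0.0259% lower) and in trained BLA 0.0432% (0.0173% higher and 0.0259% lower). In naive hippocampus 0.202% were called (0.109% higher and 0.0931% lower) and in trained hippocampus 2.8% (2.65% higher and 0.143% lower). At an unadjusted p below 0.05 there were 14 and 8 of the 41 genes in the BLA and 5 and 12 in the hippocampus, where the shares of all genes were 13.2% and 10.3% in the BLA and 15.2% and 20.3% in the hippocampus. DESeq2 and limma-voom called 0 of the 41 in each case. Pclo had like values in naive (-0.27 ± 0.11) and trained (-0.28 ± 0.11) hippocampus, and so did Syt4 in naive (-0.33 ± 0.10) and trained (-0.37 ± 0.11) BLA. In naive hippocampus Syt2 had the smallest p, at -0.43 ± 0.15 (edgeR adjusted p = 0.178).

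Fear conditioning left no called difference in the presynaptic genes 1 hour after the shock. By edgeR 0 of the 41 genes and 0% of all genes were called for training in controls, for training in APP/Tau mice and for the interaction of genotype and training, in both tissues, and DESeq2 and limma-voom called 0 of the 41. At an unadjusted p below 0.05 there were 3 of the 41 genes (and 5.85% of all genes) for training in APP/Tau BLA. There were 0 in each of the other 5 comparisons, where 2.09 to 4.59% of all genes had such a p. Cplx3, a complexin of ribbon synapses and of a subset of cortical neurons, had the value farthest from 0, at 1.04 ± 0.31 in APP/Tau BLA (edgeR adjusted p = 0.712). It stood at 3.05, 3.89, 4.61, 7.13 and 10.5 CPM in the naive and 8.24, 9.03, 9.30 and 21.4 CPM in the trained APP/Tau mice. The groups overlapped, and without the mouse at 21.4 CPM the log2 fold change was 0.60. In controls the largest values were 0.28 in size in the BLA and 0.29 in the hippocampus.

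Among the 9 APP/Tau hippocampi several presynaptic genes were lowest in the 3 mice with the most Gfap, the intermediate filament gene of astrocytes. The genes shown here were chosen after their values were seen. Gfap lay between 672 and 1795 CPM in 6 APP/Tau mice and between 3722 and 4882 CPM in 3 (trained replicates 1 and 3 and naive replicate 5), and between 315 and 497 CPM in controls. Ppfia2 stood at 141, 111 and 110.5 CPM in those 3 mice, 168 to 221 CPM in the other 6 APP/Tau mice and 182 to 250.0 CPM in controls. Bsn, the gene of Bassoon, stood at 268, 249 and 197 CPM in the 3 mice, 324 to 404 CPM in the other 6 and 362 to 444 CPM in controls. For both genes the 3 mice lay below every other library. Pclo did the same, at 228, 237 and 181 CPM in the 3 mice against 267 to 323 CPM in the other 6, while Sypl was highest in these 3, at 63.7, 68.9 and 71.0 CPM against 51.4 to 63.4 CPM.

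A fit against log2 Gfap within the APP/Tau groups, chosen after seeing the data, called 22 of the 41 genes, 20 falling and 2 rising, where 8.48% of 24223 genes fell and 10.7% rose, 19.1% in all. In the same fit 10 of 12 microglial, 7 of 8 astrocytic and 9 of 9 oligodendrocyte markers rose, as did 4 of 8 GABAergic markers, while 5 of 10 hippocampal neuron, 3 of 6 glutamatergic and 4 of 15 general neuronal markers fell, and their part was not tested. The fit called 7 of 11 active zone genes, 8 of 18 vesicle genes, 5 of 7 release genes and 2 of the other 5. Gfap fell into separate clusters of 6 and 3 mice. In 7 of the 9 fits that left out 1 library the number called stayed similar to 22, and not all of these 7 fits held all 3 high mice. Within the 6 lower mice, over a 2.67-fold range of Gfap and with 3 residual degrees of freedom, edgeR called 0 of the 41 genes and 2 had an unadjusted p below 0.05. The slopes there were -0.11 ± 0.09 for Ppfia2, -0.07 ± 0.09 for Bsn and -0.09 ± 0.08 for Pclo, and 21 of the 41 were below 0, so these 6 mice do not settle whether the relation holds among them. Naive replicate 5 alone held the lowest hippocampal level in 19 of the 41 genes, and without it 1 gene was called. Without that mouse the genotype effect of Pclo was -0.22 ± 0.05 (edgeR adjusted p = 0.0171), without trained replicate 1 it was -0.26 ± 0.08 (0.0727) and without trained replicate 3 it was -0.25 ± 0.08 (0.0794).

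**Figure D5:**
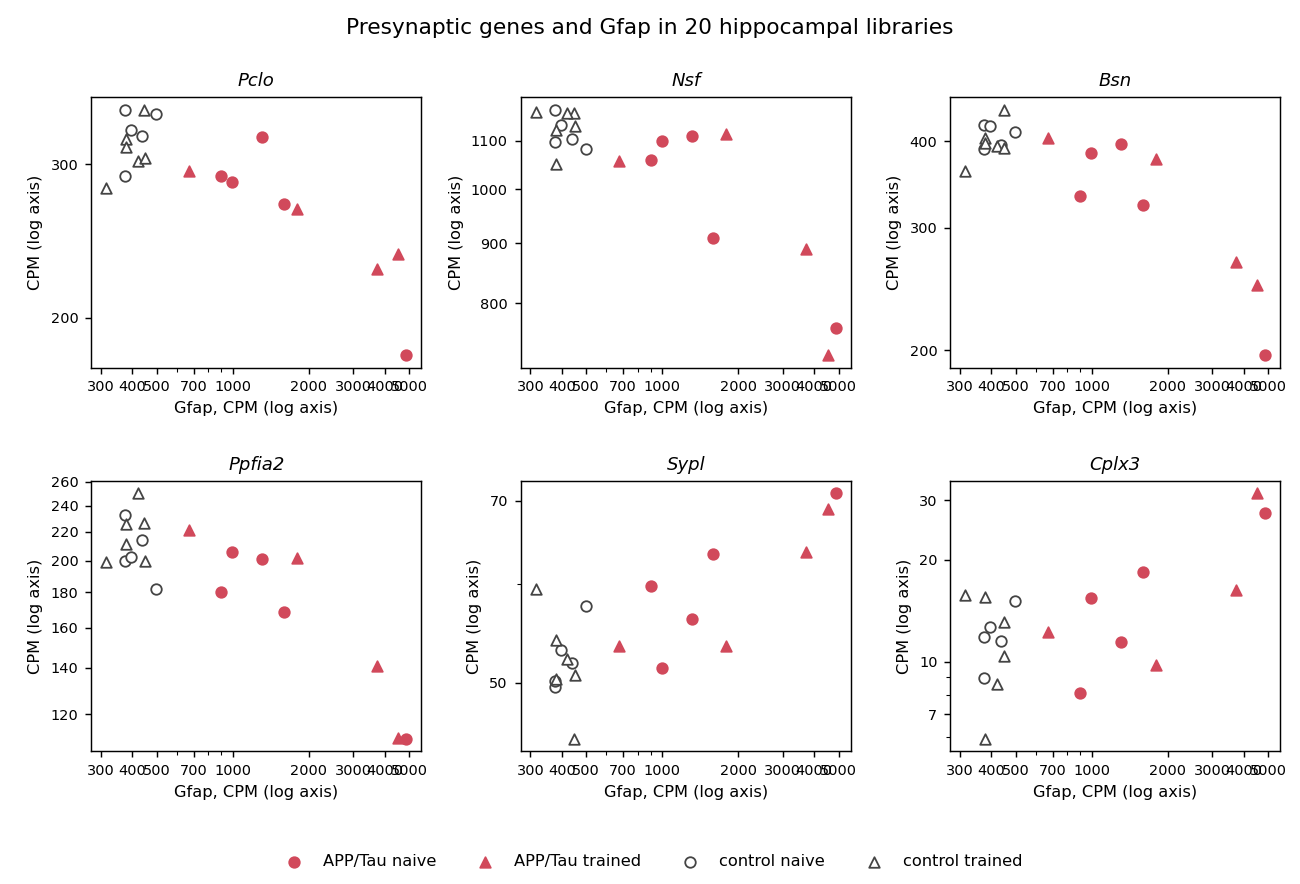
CPM of 6 presynaptic genes against the CPM of Gfap in the 20 hippocampal libraries, both on log axes. The 3 APP/Tau mice with Gfap from 3722 to 4882 CPM hold the lowest Pclo, Bsn and Ppfia2 and the highest Sypl, and the controls lie together on the left.

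A further 57 genes of the presynaptic pathway, outside the 41, were counted beside them. In the hippocampus 9 of the 57 were called between genotypes, 3 higher and 6 lower, beside 11.1% of all genes (7.27% higher and 3.8% lower). Pacsin1 (-0.23 ± 0.05) and Itsn1 (-0.19 ± 0.04), which serve vesicle retrieval, and Doc2b (-0.62 ± 0.14), a calcium sensor of spontaneous release, were lower, while Sncg (0.52 ± 0.13, γ-synuclein) and Bin1 (0.12 ± 0.03) were higher. In trained hippocampus Sncg was the 1 gene of the 57 called, at 0.70 ± 0.18, beside 2.8% of all genes. In the BLA 0 of the 57 were called by edgeR, beside 1.18% of all genes, and their median log2 fold change was -0.11. Between tissues 47 of the 57 differed, 32 higher and 15 lower in the BLA, beside 64.5% of all genes. The smallest p belonged to Gap43 (1.68 ± 0.06), a growth cone protein, Syt5 (1.06 ± 0.05), Svop (0.99 ± 0.05), Doc2a (1.53 ± 0.08) and Syngr3 (0.57 ± 0.03).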

How the data were processed

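The authors deposited 1 table of raw counts per tissue, in whole reads for each gene symbol. The submitters' processing notes name Trimmomatic 0.39 and build mm39. How reads were aligned and counted, with which annotation and strand setting, is not given in the sources used here, so reads of overlapping genes may be shared.

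Each tissue was fitted with 4 group means (8 for the comparison of tissues) in R 4.3.3 with edgeR 4.0.16: filterByExpr (minimum count 10, total 15), TMM factors, the quasi-likelihood F test (2-sided), Benjamini-Hochberg adjustment over all genes, and a threshold of adjusted p below 0.05. The SE is |log2 fold change| divided by √F, and a 95% interval spans 1.96 SE either side. Log2 CPM used a prior count of 2. Alternatives were DESeq2 1.42.0, limma-voom (limma 3.58.1), RLE factors, other filters, a replicate block, a striatal covariate and leaving out libraries.

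The 41 genes and all lists were chosen with earlier results of these data known. Named in full are called genes, at most the 8 with the smallest p, or the 3 with the smallest p where fewer than 3 passed, paralogs called in opposite directions and, of other pathway genes, up to 5 per comparison. Other names, the slope fits and the promoter windows were chosen after values were seen.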

Additional observations from a re-analysis of the deposited data

Results flagged for a closer look

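Of 160 sets of libraries (19 genes and the active zone to vesicle difference in 8 groups) 6 held a library whose gap to its nearest neighbour was large for the range of its group. Chance flags about 1 in 20 such sets. Nrxn2 stood at 534 CPM in trained APP/Tau BLA replicate 2, above 455.5 to 464 CPM in the other 3 mice of the group, and this is the mouse without which 16 genes were called in the BLA. Cplx3 stood at 21.4 CPM in trained APP/Tau BLA replicate 3, against 8.24 to 9.30 CPM in the others. Syt7 stood at 249 CPM in trained control BLA replicate 2, the control with most striatal signal, against 352 to 387 CPM. Nsf stood at 1051 CPM in trained control hippocampus replicate 4, against 1122 to 1163 CPM. Vamp1 stood at 142.9 CPM in trained control hippocampus replicate 6, against 113 to 124 CPM. The active zone to vesicle difference was -0.92 in naive control hippocampus replicate 2, against -0.86 to -0.84.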

How the results depend on the processing

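Genes named by p or by call kept their sign under the alternatives run for them. Of all 41 genotype effects, 7 in the BLA changed sign with the striatal covariate and 1 (Unc13c) without the library rich in 18S RNA, and 1 in the hippocampus (Slc17a6, 0.02 to -0.05) without trained APP/Tau replicate 1. The number of the 41 genes called between genotypes was small and moved with the setting. In the main fits 1.18% of all genes were called in the BLA and 11.1% in the hippocampus. Between tissues it was 64.5%, for the striatal slope 15.2% and for the Gfap slope 19.1%. The share of all genes moved too, to 9.21% in the BLA without trained APP/Tau replicate 2. It is not given for each setting, so the counts below cannot be read against it. In the BLA it was 1, and 3 by DESeq2, 0 by limma-voom, 0 without the control library rich in 18S RNA, 0 with the striatal covariate, 0 with a replicate block, and 0 to 16 when single libraries were left out. In the hippocampus it was 2, and 7 by DESeq2, 4 by limma-voom, 1 with no filter on low counts, 5 with a minimum mean of 1 CPM, 0 without the 3 libraries rich in 18S RNA, 11 with a replicate block, and 0 to 11 when single libraries were left out (11 without trained APP/Tau replicate 4). With the block 1 gene was called in naive and 2 in trained hippocampus. Leaving out single libraries gave 0 to 2 genes in trained mice of either tissue and 21 to 30 for the striatal slope. The cause was not tested. Between tissues the count was 25 (naive controls only, an alternative chosen after seeing the data) to 36 (libraries blocked by the number both tissues share). The slope on Gfap called 0 genes with a replicate block, 0 without the 2 libraries farthest from the median and 0 without the 3 libraries above the gap, and 1 to 23 when single libraries were left out. Replicate numbers in the titles did not pair the mice: deviations of same-numbered libraries correlated at -0.02 on average in the BLA and 0.03 in the hippocampus. Library numbers shared by the tissues gave 0.18 over 19 pairs, and 17 of 19 BLA libraries correlated best with their own number.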
